A study of Mus musculus with 7 samples.

Results

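Of the 55367 genes in the deposited count table, 51 had 0 counts in all 3 libraries labelled noCRS and at least 20 counts in each of the 4 libraries labelled CRS. They were chosen by those counts and by name: 77 genes met the count rule, and 26 were set aside for their names. Of these, 15 were predicted or cDNA models (Gm and Rik names), and the rest were set aside by gene family prefix or as single names. Ccn2, Ptgs2 and the vesicular glutamate transporter gene Slc17a6 were among the single names, so genes with the same pattern are missing from the 51. Because the counts themselves chose the genes, the difference between CRS and noCRS in these genes is a description and no test of it is given. The libraries are bulk RNA-seq of samples named in the labels as mPFC-LHB projection neurons (medial prefrontal cortex to lateral habenula), of C57BL/6J mice at P90. Their transcripts were largely glial by marker lists: oligodendrocyte markers summed to 28899 to 56902 CPM (counts scaled to library size) over the 7 libraries and excitatory cortical neuron markers to 162 to 1587 CPM. The 3 noCRS and 4 CRS libraries share strain, age and tissue, differ by the treatment label alone, and carry no further allele or agent in the labels. The series title speaks of chronic stress, and the labels do not spell out CRS. Neither the isolation of the neurons nor the number of animals behind a library is stated in the labels, so a p-value here reflects the spread of these libraries, which may be technical in origin.

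A gene can be missing from one RNA-seq library and present in the next for more than one kind of reason. A cell type that uses the gene may be absent, the gene may be silent, or, where little RNA enters the library, none of its few transcripts may be copied and amplified, which is called dropout. A library amplified from few molecules tends to hold scarce transcripts either at many reads or at none. Projection neurons of the medial prefrontal cortex are glutamatergic pyramidal cells. Some of the genes below are better known from muscle, connective tissue or the immune system, while others, such as Sla and Hs3st2, are also known from neurons. Their levels in such cells alone were not measured here.

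The antigen receptor genes gave the shortest members. A T cell receptor beta chain is joined from a V, a D and a J segment to a constant region, and the joining segments of the second cluster lie in a row before the constant gene Trbc2. Trbj2-3 and Trbj2-7 were members. They are printed below with the 4 neighbouring segments that hold the same conserved stretch, to show how alike the counted segments are. Each is the GENCODE M21 sequence on the plus strand of chromosome 6 (GRCm38), 5′ to 3′, with the codons that match the conserved joining motif (phenylalanine, glycine, any residue, glycine, with any last base in the first codon) in capitals. That motif was found on the sense strand in 57 of 70 T cell receptor and 8 of 14 immunoglobulin joining segments of the annotation.
Trbj2-1 (chr6:41542754-41542803): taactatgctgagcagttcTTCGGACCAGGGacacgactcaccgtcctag
Trbj2-2 (chr6:41542957-41543007): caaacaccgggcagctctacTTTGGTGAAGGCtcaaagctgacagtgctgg
Trbj2-3 (chr6:41543223-41543271): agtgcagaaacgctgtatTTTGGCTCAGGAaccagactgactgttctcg
Trbj2-4 (chr6:41543362-41543410): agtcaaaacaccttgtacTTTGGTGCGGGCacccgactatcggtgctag
Trbj2-5 (chr6:41543453-41543501): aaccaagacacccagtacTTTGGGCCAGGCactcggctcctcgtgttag
Trbj2-7 (chr6:41543810-41543856): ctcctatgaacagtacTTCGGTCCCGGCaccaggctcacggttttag

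Promoters were searched in RefSeq windows (GRCm38.p6) from 250 bases before to 50 bases after a gene's start. A window was found for 36 of the 51 genes, 46 windows in all with alternative starts. The cAMP response element TGACGTCA, a palindrome bound by CREB and related factors, was in 3 of the 46 windows (6.52%) and in 1.79% of all 32851 windows. The 30 bases around each match are shown 5′ to 3′ on the gene's strand with the element in capitals, since these are the matches the count rests on.
Cartpt (chr13:99900777-99900806, minus strand): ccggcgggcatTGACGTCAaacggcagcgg
Has1 (chr17:17855253-17855282, minus strand): cagacttgtccTGACGTCAgccctcctcca
Hs3st2 (chr7:121392216-121392245, plus strand): acccgcgcggcTGACGTCAggcgactcctt
The element began 112, 83 and 69 bases before the RefSeq start used for Cartpt, Has1 and Hs3st2. In the deposited table Cartpt (minus strand, from 99901091) and Hs3st2 (plus strand, from 121391859) start farther upstream. By those coordinates their elements lie inside the gene, and that of Has1 lies before it. On both strands the AP-1 site TGACTCA was in 0 of the 46 windows and 5.20% of all windows, the E-box CAGATG in 7 (15.2%) and 17.2%, and TATAAA in 9 (19.6%) and 13.6%. A match of letters is not a shown binding site, and binding was not measured here.

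Library totals ran from 28677703 to 39965667 counts, and the deepest library held 1.39 times the counts of the shallowest. The number of genes detected was lowest in CRS replicate 2 (16938) and highest in CRS replicate 4 (23399). Values below are counts or CPM (counts scaled to library size with TMM factors). The floors used below cover sampling of reads alone, because copies of 1 molecule made by amplification are counted as separate reads. A count of 0 allows up to 3 counts, or 0.0724 to 0.0963 CPM in a single noCRS library and 0.0286 CPM over the noCRS group. Folds below are CRS means over that group floor and are lower bounds on counts, not on expression.

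Over the 51 genes the CRS mean ran from 1.61 CPM (Kiss1r) to 29.4 CPM (Sla), with a median of 5.22 CPM, at least 56.3-fold to 1030-fold over the floor with a median of 183-fold. In counts, 18 genes had at least 100 in every CRS library and 13 had fewer than 50 in their lowest. All 51 passed the expression filter of the edgeR quasi-likelihood test, as genes high in a whole group do, and 36 of them had an adjusted p under 0.05 for higher counts in CRS. Over all 17833 genes tested that share was 2.07%, with 0.23% lower and 2.3% in either direction. Scaling by total counts alone shifted the median over all tested genes from -0.02 to -0.17 on the log2 scale and gave 248 higher and 64 lower calls, beside 369 and 41. Since the rule used the same contrast, nothing is read from the 36 calls. Without any 1 library between 10 and 22 of them were called, and with the replicate number as a block 0 were (lowest adjusted p = 0.165; 51 at an unadjusted p under 0.05; DESeq2 called 51 and limma-voom 41 without the block).

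**Figure D1:**
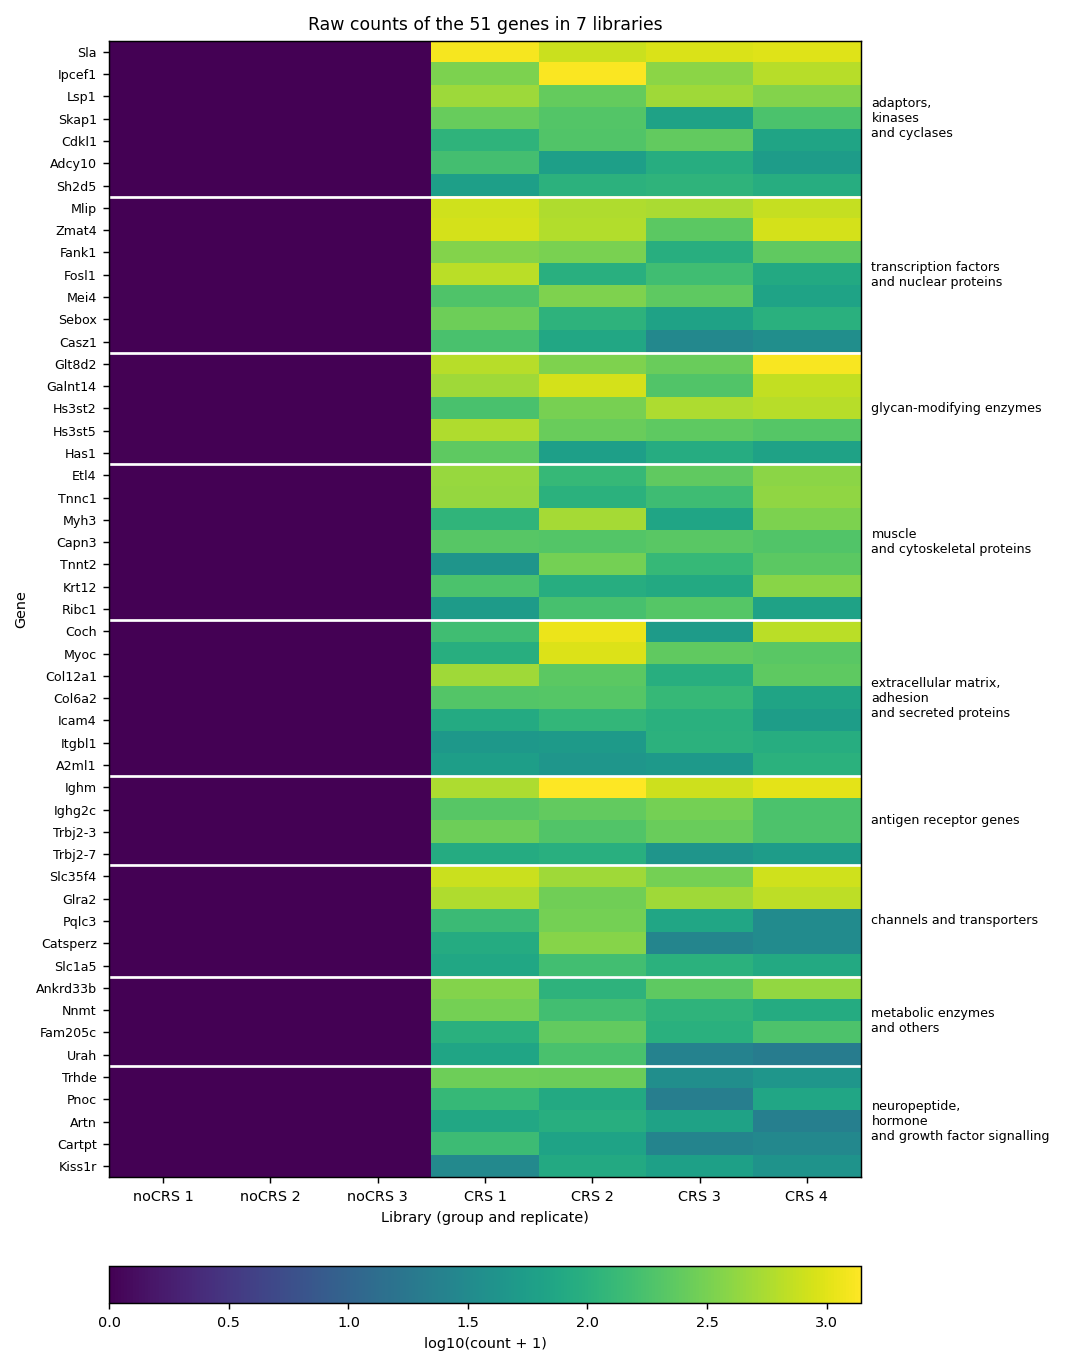
Heat map of log10(count + 1) for the 51 genes (rows, grouped by role) in the 3 noCRS and 4 CRS libraries (columns). The noCRS columns are 0 throughout, and the CRS counts run from 20 (Urah, CRS replicate 4) to 1388 (Ighm, CRS replicate 2).

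Members named for signalling inside the cell were led by Sla. Sla, a Src-like adaptor that dampens receptor signalling in lymphocytes and is also transcribed in neurons, had 1244, 777, 929 and 966 counts in CRS replicates 1 to 4. That is 29.4 ± 6.13 CPM (SD, n = 4), the highest mean of the 51, and its highest library held 1.55 times its lowest in CPM. Sla lies on chromosome 15 (66780819 to 66831829, minus strand, GRCm38).
Ipcef1, a partner of the cytohesin exchange factors of ARF6, had 334, 1327, 390 and 631 counts (20.2 ± 14.4 CPM), high in CRS replicate 2 alone, and 13.1 CPM without it. Lsp1, an F-actin-binding protein of leukocytes, had 477, 247, 488 and 360 counts (11.9 ± 4.0 CPM), and no CRS library stood apart. The remaining genes of the group were Skap1, an adaptor of T cell adhesion (5.18 ± 2.45 CPM), Sh2d5, an SH2 domain protein of the brain (2.74 ± 0.863 CPM), the cyclin-dependent kinase-like Cdkl1 (4.77 ± 2.80 CPM) and Adcy10, the soluble adenylyl cyclase (2.76 ± 1.53 CPM).

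Of the 4 antigen receptor genes, Ighm encodes the constant region of immunoglobulin M. It had 567, 1388, 796 and 1018 counts, or 28.3 ± 10.9 CPM, highest in CRS replicate 2, and lies on chromosome 12 (113418558 to 113422730, minus strand). Ighg2c, the constant region of an immunoglobulin G subclass, had 213, 241, 308 and 177 counts (7.18 ± 2.32 CPM). These are 2 of 393 immunoglobulin heavy and light chain genes of the table, and 388 of the 393 had 0 counts in all 7 libraries. The other three, Ighg2b, Ighv1-59 and Ighv1-86, had between 1 and 3 counts in a single CRS library and 0 elsewhere.
Trbj2-3 had 282, 193, 265 and 181 counts in CRS (7.0 ± 1.96 CPM) and Trbj2-7 had 86, 96, 42 and 54 (2.10 ± 0.824 CPM). Per kilobase of exon they were the highest of the 51, at 143 and 44.6 CPM per kilobase against 15.01 for Ighm, the next, and 0.189 for Casz1, the lowest. Segments this short take in reads that reach into flanking sequence, so their per-length values are uncertain. Trbj2-4, just outside the rule, had 21, 30, 18 and 34 counts in CRS and 0 in noCRS, and Trbj2-2 had 0, 34, 43 and 19. Trbj2-1 was the exception, with 57 counts in noCRS replicate 1 and 17, 0, 25 and 17 in CRS, and Trbj2-5 was listed at 4 counts in CRS replicate 4 alone. Trbj2-6 had 20, 27, 0 and 7 counts in CRS and 0 in noCRS.
Trbc2, the constant gene next to these segments, was named after its values were seen. It had 187, 2 and 0 counts in noCRS and 1300, 952, 1253 and 1040 in CRS, so the groups did not overlap. The means were 1.52 ± 2.59 and 34.4 ± 7.01 CPM (n = 3 and 4, edgeR adjusted p = 0.229; 0.0184 by DESeq2 and 0.0351 by limma-voom). Leaving out noCRS replicate 1 gave a noCRS mean of 0.0321 CPM and an adjusted p of 0.0121, and over all libraries left out in turn it ran from 0.0121 to 0.409. Transcripts of the T cell receptor beta locus are known from mouse neurons as well as T cells.
Markers of B and T lymphocytes were sparse. Of 14, 9 had 0 counts in every library, among them Cd79b, Ms4a1, Cd3d, Cd3e, Cd3g and Ptprc, and none reached the expression filter. The 5 detected were Cd8a (173 counts in noCRS replicate 1 only), Lck (168 in noCRS replicate 2 and 46 in CRS replicate 4), Cd79a (96 in CRS replicate 2 and 11 in CRS replicate 4), Cd74 (24) and Cd4 (6), both in CRS replicate 4 only. Their summed level was 4.17, 5.39 and 0 CPM in noCRS and 0, 2.995, 0 and 2.27 CPM in CRS. CRS replicates 1 and 3 held Ighm, Ighg2c and both Trbj2 members with 0 counts of every lymphocyte marker listed. The markers were listed after values were seen and are too sparse to tell the cells of origin, and the source of the receptor counts was not tested.

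**Figure D2:**
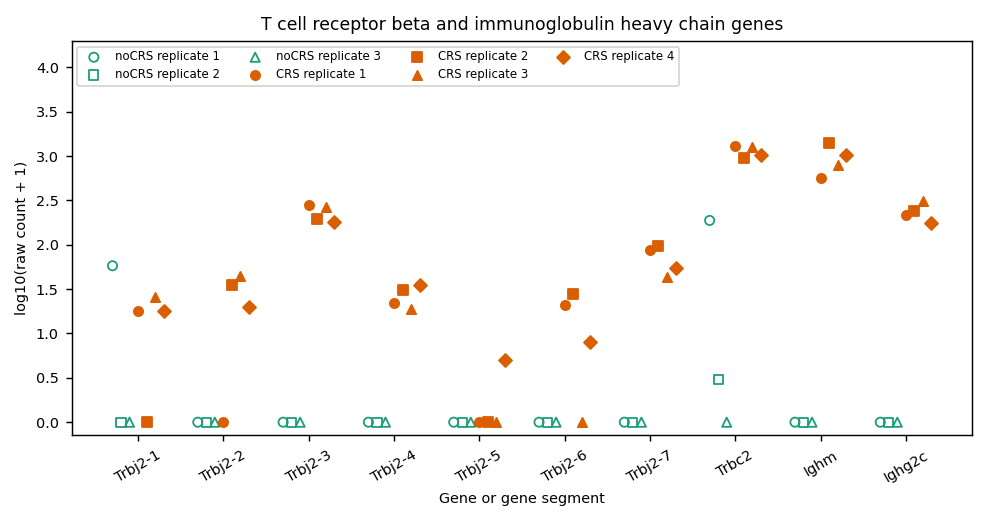
The log10(count + 1) per library of the T cell receptor beta joining segments, Trbc2, Ighm and Ighg2c in the 3 noCRS and 4 CRS libraries. Trbj2-3, Trbj2-7, Ighm and Ighg2c are at 0 in noCRS, whereas Trbj2-1 and Trbc2 have 57 and 187 counts in noCRS replicate 1.

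Channels and transporters followed. Glra2, the alpha 2 subunit of the glycine-gated chloride channel, had 580, 291, 494 and 684 counts (15.2 ± 4.12 CPM; chromosome X, 165129017 to 165327393, minus strand), lowest in CRS replicate 2. Of the other subunits Glrb was at 215 ± 38.3 CPM in noCRS and at 340 ± 85.4 CPM in CRS (edgeR adjusted p = 0.213). Glra1 had 24 counts, all in noCRS replicate 2, and Glra3 had 60, all in CRS replicate 4. In the fixed list of ligand-gated channels and their auxiliary subunits, 7 of 69 tested genes rose, Glra2 among them, and 0 fell by edgeR (6 lower at an unadjusted p under 0.05, 5 by DESeq2 and 1 by limma-voom). Over all tested genes edgeR called 2.07% higher and 0.23% lower.
Slc35f4, of a family of solute carriers, had 767, 501, 302 and 823 counts (17.6 ± 5.99 CPM), lowest in CRS replicate 3. Slc1a5, the glutamine transporter ASCT2, was at 3.12 ± 1.25 CPM. In the list of solute carriers and pumps 9 of 294 tested genes rose, Slc1a5 among them and 8 not members, and 1 fell. Over all tested genes 2.07% rose and 0.23% fell. Pqlc3, of the PQ-loop family of membrane proteins, was at 4.23 ± 3.82 CPM and at 2.45 CPM without CRS replicate 2. Catsperz, a subunit of the sperm calcium channel, was at 3.99 ± 5.20 CPM and at 1.42 CPM without CRS replicate 2. Catsperz shares 46.5% of its exon length with the potassium channel gene Kcnk4 on the same strand, whose reads may be counted for it. Kcnk4 had 0, 1 and 1 counts in noCRS and 220, 282, 77 and 146 in CRS, so the reads of Catsperz itself are uncertain. Of 11 CatSper subunits 4 were tested and edgeR called 0 (1 at an unadjusted p under 0.05, 1 by DESeq2 and 0 by limma-voom).

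Enzymes that modify glycans made up 5 of the 51. Hs3st2 and Hs3st5 add the 3-O-sulfate of heparan sulfate, the side chain of cell surface and matrix proteoglycans. Hs3st2, also known from cortical excitatory neurons, had 175, 317, 566 and 644 counts (12.7 ± 6.20 CPM). It was higher in CRS replicates 3 and 4 than in replicates 1 and 2, and lies on chromosome 7 (121391859 to 121501770, plus strand). Hs3st5 had 583, 268, 233 and 207 counts (9.76 ± 5.38 CPM), with CRS replicate 1 the highest.
Other members of the family were named after their values were seen. Hs3st1 was abundant in both groups, at 110 ± 15.8 CPM in noCRS and 130 ± 22.5 CPM in CRS (edgeR adjusted p = 0.756). Hs3st4 had 15, 0 and 0 counts in noCRS and 196, 195, 180 and 275 in CRS, or 0.121 ± 0.209 and 6.28 ± 0.596 CPM (edgeR adjusted p = 0.194; 0.000600 by DESeq2 and 0.0235 by limma-voom). Its groups did not overlap, and without noCRS replicate 1 its noCRS mean was 0 and its adjusted p 0.0493 (0.0493 to 0.356 over all libraries left out). Hs3st3b1 had 419 counts in CRS replicate 4 and 0 in the other CRS libraries.
Glt8d2, a glycosyltransferase domain protein, had 632, 341, 262 and 1311 counts (18.1 ± 11.6 CPM), highest in CRS replicate 4. Galnt14, which starts mucin-type O-glycans, had 494, 862, 195 and 705 counts (16.7 ± 8.47 CPM), lowest in CRS replicate 3. Has1, a hyaluronan synthase, was at 3.35 ± 2.50 CPM and at 2.13 CPM without CRS replicate 1. The main brain synthase Has2 was present in both groups, at 14.5 ± 3.57 and 9.40 ± 7.25 CPM (edgeR adjusted p = 0.857), and Has3 was at 0.691 ± 0.305 and 0.557 ± 0.824 CPM (adjusted p = 0.972).

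Matrix, adhesion and secreted proteins numbered 7. Col12a1, a collagen that coats fibrils of tendon and fascia, had 492, 225, 93 and 229 counts (7.73 ± 5.04 CPM), highest in CRS replicate 1. Myoc, the myocilin of the eye's trabecular meshwork, had 93, 948, 235 and 216 counts (11.4 ± 12.3 CPM), and 5.40 CPM without CRS replicate 2. Coch, the cochlin of the inner ear, had the widest gap between its highest and lowest library of the 51, with 152, 1111, 52 and 657 counts (14.5 ± 15 CPM; 7.81 CPM without CRS replicate 2).
The collagen VI chain Col6a2 was at 4.59 ± 2.13 CPM. Col6a1, which assembles with it and was named after its values were seen, had 0 counts in noCRS but 446, 0, 185 and 535 in CRS, so CRS replicate 2 lacked it (edgeR adjusted p = 0.153). Itgbl1, an integrin beta-like protein, was at 2.17 ± 0.918 CPM, Icam4, the Landsteiner-Wiener adhesion protein of red cells, at 2.73 ± 1.01 CPM, and A2ml1, a protease inhibitor of epithelia, at 1.83 ± 0.538 CPM. All of the exon sequence of Icam4 lies within the exons of Gm47079 on the opposite strand, and the libraries do not mark strand. Icam4 had 83, 121, 97 and 55 counts in CRS and Gm47079 had 83, 121, 102 and 71, so the reads of Icam4 itself are uncertain.
In the fixed list of extracellular matrix and proteoglycan genes 8 of 182 tested rose, 4 of them members, and 2 fell. Over all tested genes 2.07% rose and 0.23% fell. The list's median log2 fold change was -0.29, beside -0.02 over all tested genes. The list held 6 of the 51 (Col12a1, Col6a2, Has1, Hs3st2, Hs3st5 and Itgbl1), or 5.77% of its genes with at least 20 counts in each CRS library. The count rule before names were left out took 0.625% of all such genes, so the shares are not matched. In the other function lists with a member the share ran from 0.204% (transcription factors and chromatin) to 2.78% (neuropeptides and secreted ligands), and the remaining function lists held none. The counts chose the members, so these shares are a description and were not tested. Of the listed genes that are not members, Serpini1, the serpin neuroserpin, rose from 35.4 ± 14.3 to 442 ± 99.9 CPM (edgeR adjusted p = 0.00369). Ccn2, a matricellular protein, met the count rule and was left out by name alone, so it is described without a test, at 0 counts in noCRS and 23.7 ± 8.14 CPM in CRS. The syndecan partner Sdcbp rose from 374 ± 28.7 to 829 ± 210 CPM (adjusted p = 0.0303), a call lost without any library but CRS replicate 2 (up to 0.145). Matn4, a matrilin, fell from 52.6 ± 12.4 to 16.3 ± 3.15 CPM (adjusted p = 0.0300), a call lost without any library but noCRS replicate 1 or CRS replicate 2 (up to 0.151).

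Muscle and cytoskeletal proteins also numbered 7. Tnnc1, the calcium-binding troponin C of slow and cardiac muscle, had 442, 102, 144 and 419 counts (8.05 ± 4.86 CPM), high in CRS replicates 1 and 4 and low in the others. Myh3, the embryonic myosin heavy chain, had 112, 530, 69 and 335 counts (7.73 ± 6.51 CPM; 4.80 CPM without CRS replicate 2). Tnnt2, the cardiac troponin T, was at 5.22 ± 3.45 CPM. Myh3 and Tnnt2 were both highest in CRS replicate 2, where Tnnc1 was lowest.
Of 33 sarcomere genes, listed after values were seen, 14 were tested. The 3 called higher were all members, so nothing is read from those calls. The summed level of the 33 sarcomere genes was 78.7 to 114 CPM in CRS. That sum holds the 3 members, which the rule chose as high in CRS and 0 in noCRS, so the groups' sums are not compared. In noCRS the sum was 43.1 to 61.1 CPM, so other sarcomere genes were present there. One of them, Des, the muscle intermediate filament desmin, had 163, 96 and 183 counts in noCRS and 0 in every CRS library.
Capn3, a muscle calpain, had the smallest spread of the 51 relative to its mean, with 214, 198, 217 and 196 counts (6.23 ± 0.854 CPM). It shares 49.9% of its exon length with AL935121.1 on the same strand, which had 0, 14 and 30 counts in noCRS and 216 to 320 in CRS, so its own reads are uncertain. Krt12, the keratin of the corneal epithelium, had 176, 89, 80 and 380 counts (5.16 ± 3.39 CPM), and 54.4% of its exon length is shared with A830036E02Rik on the opposite strand (0 in noCRS; 190, 37, 29 and 398 in CRS). Etl4, a cytoskeletal protein of the Sickle tail locus, had 453, 127, 238 and 391 counts (8.92 ± 4.08 CPM), lowest in CRS replicate 2. Ribc1, a protein of ciliary doublet microtubules, was at 3.82 ± 2.63 CPM.

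Neuropeptide, hormone and growth factor genes were the lowest group by median, at 1.96 CPM over its 5 genes. Cartpt encodes the CART peptide and was at 1.96 ± 1.63 CPM, or 1.20 CPM without CRS replicate 1. Pnoc, the precursor of nociceptin, had 127, 79, 21 and 71 counts (2.21 ± 1.31 CPM), with CRS replicate 3 only just above the minimum. Its receptor gene Oprl1 was present in both groups, at 78.0 ± 10.7 CPM in noCRS and 36.0 ± 18.8 CPM in CRS (edgeR adjusted p = 0.313).
Kiss1r, the kisspeptin receptor, was at 1.61 ± 0.783 CPM, while its ligand gene Kiss1 was detected in CRS replicates 2 and 4 only (82 and 24 counts). Trhde, the enzyme that degrades thyrotropin-releasing hormone, split the CRS libraries, with 284 and 276 counts in replicates 1 and 2 and 35 and 44 in replicates 3 and 4 (4.87 ± 4.3 CPM). The hormone gene Trh had 0, 0 and 111 counts in noCRS and 109, 0, 105 and 82 in CRS, and the receptor gene Trhr had 0, 0 and 97 and then 299, 0, 609 and 377 (edgeR adjusted p = 0.93 and 0.700). Artn, the GDNF-family ligand artemin, had 76, 93, 63 and 22 counts (1.96 ± 0.989 CPM), lowest in CRS replicate 4. The signalling receptor gene Ret had 260 counts, all in noCRS replicate 3. Kiss1, Trh, Trhr, Oprl1 and Ret were named as partners of members after values were seen. Of 8 such partner genes 3 were tested and edgeR called 0 (1 at an unadjusted p under 0.05, 0 by DESeq2 and 0 by limma-voom).
In the fixed list of neuropeptides and secreted ligands 8 of 113 tested genes rose and 0 fell by edgeR (4 lower at an unadjusted p under 0.05, 2 by DESeq2 and 1 by limma-voom). Over all tested genes 2.07% rose and 0.23% fell. The list's median log2 fold change was 0.70, and neither listed member, Cartpt or Pnoc, was called. The 4 called genes of smallest p had counts in both groups. The granin Scg2 rose from 19.1 ± 2.20 to 143 ± 17.7 CPM (adjusted p = 0.000685) and Fgf12, an intracellular fibroblast growth factor homolog, from 39.5 ± 2.77 to 132 ± 18.9 CPM (adjusted p = 0.00476). The peptide gene Cck rose from 7.76 ± 2.98 to 133 ± 60.6 CPM (adjusted p = 0.00574). The prohormone convertase gene Pcsk2 rose from 49.7 ± 11.1 to 176 ± 34.9 CPM (adjusted p = 0.00871; 0.0501 without noCRS replicate 2).

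Transcription factors and nuclear proteins numbered 7. Mlip, a lamin-interacting protein best known from the heart, had 812, 584, 554 and 740 counts (20.1 ± 3.0 CPM; chromosome 9, 77102081 to 77352969, minus strand), and no library was below 18.2 CPM. Zmat4, a zinc finger protein, had 866, 602, 222 and 863 counts (18.7 ± 8.15 CPM), low in CRS replicate 3. Fank1, an ankyrin repeat protein of testis, had 359, 324, 93 and 236 counts (7.54 ± 3.62 CPM), also low in CRS replicate 3.
Fosl1 encodes the AP-1 subunit FRA1 and had 656, 94, 152 and 80 counts (7.46 ± 8.32 CPM), or 3.35 CPM without CRS replicate 1. It shares 57.2% of its exon length with Ccdc85b on the opposite strand. Ccdc85b had 943 to 1828 counts in noCRS, yet no read was counted for Fosl1 in noCRS. Sebox, an oocyte homeobox factor, was at 4.15 ± 2.99 CPM (2.68 without CRS replicate 1). Casz1, a zinc finger factor of heart and retina, was at 2.37 ± 2.04 CPM (1.40 without CRS replicate 1). Mei4, which is needed for meiotic DNA breaks, was at 6.42 ± 3.78 CPM. In the fixed list of transcription factors and chromatin genes 12 of 713 tested genes rose, Fosl1 among them and 11 not members, and 2 fell. Over all tested genes 2.07% rose and 0.23% fell, so nothing is read from this list.

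Metabolic enzymes and genes of less certain role made up the remaining 4. Ankrd33b, an ankyrin repeat protein, had 366, 107, 230 and 426 counts (8.27 ± 3.68 CPM), lowest in CRS replicate 2. Fam205c, of the Fam205 gene family, had 99, 245, 97 and 181 counts (4.64 ± 2.15 CPM), highest in CRS replicate 2. Nnmt, which methylates nicotinamide, was at 5.0 ± 3.03 CPM. Urah, a hydrolase of urate breakdown, had 70, 173, 24 and 20 counts (2.21 ± 2.24 CPM; 1.14 without CRS replicate 2), the lowest count of the 51.
The fixed list of kinases, phosphatases and second messengers held Cdkl1 and Adcy10. In it 17 of 395 tested genes rose, Cdkl1 among them and 16 not members, and 1 fell (2.07% and 0.23% of all tested genes). The list's median log2 fold change was 0.03. The genes of smallest p that are not members were Prkce, a protein kinase C (9.04 ± 0.315 to 135 ± 64.6 CPM, edgeR adjusted p = 0.00369), and the phosphatase gene Dusp14 (15.5 ± 3.56 to 92.1 ± 18.2 CPM, 0.00476). Next were the phosphodiesterase gene Pde1a (16.7 ± 8.61 to 171 ± 12.01 CPM, 0.00492) and Prkacb, a catalytic subunit of protein kinase A (54.9 ± 7.84 to 221 ± 52.8 CPM, 0.00626). The list of cytoskeletal, myosin and cilia genes held Myh3, and 15 of its 303 tested genes rose, Myh3 among them and 14 not members. By edgeR 0 fell (6 lower at an unadjusted p under 0.05, 3 by DESeq2 and 1 by limma-voom). Over all tested genes 2.07% rose and 0.23% fell.

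The values of a gene varied widely among the CRS libraries. The coefficient of variation had a median of 50.9%, from 13.7% (Capn3) to 130% (Catsperz). All genes with a CRS mean within the range of the 51 (1.61 to 29.4 CPM) had a median of 44.5%. Those genes were not matched by level: 947 lay at 2 to 5 CPM and 2166 at 10 to 20, beside 19 and 9 of the 51. The members thus lay lower in the range, and a difference in spread at like level was not tested. The highest CRS library held 3.75 times the lowest in the median gene of the 51, and 2.89 times in the median gene of that unmatched range. Among the 51, the highest CRS library held over 10 times the lowest in 5 genes, up to 20.2 times in Coch, and under 2 times in 6. In 12 genes the CRS mean moved by over 1.5 times without a single library: CRS replicate 1 for Sebox, Fosl1, Has1, Casz1 and Cartpt, and CRS replicate 2 for Ipcef1, Myoc, Myh3, Coch, Catsperz, Pqlc3 and Urah.
CRS replicates 1 to 4 were the highest library for 18, 19, 9 and 5 of the 51 genes, where they were highest for 26.6%, 31.7%, 22.2% and 19.5% of the 12318 genes with at least 20 counts in every CRS library. They were the lowest for 10, 8, 13 and 20 of the 51, beside 25.95%, 30.2%, 23.2% and 20.6% of the 12318. The summed level of the 51 was 453, 497, 327 and 386 CPM. Spearman correlations between pairs of CRS libraries over the 51 genes ran from 0.42 to 0.68. They are across genes, which share library depth and amplification.

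**Figure D3:**
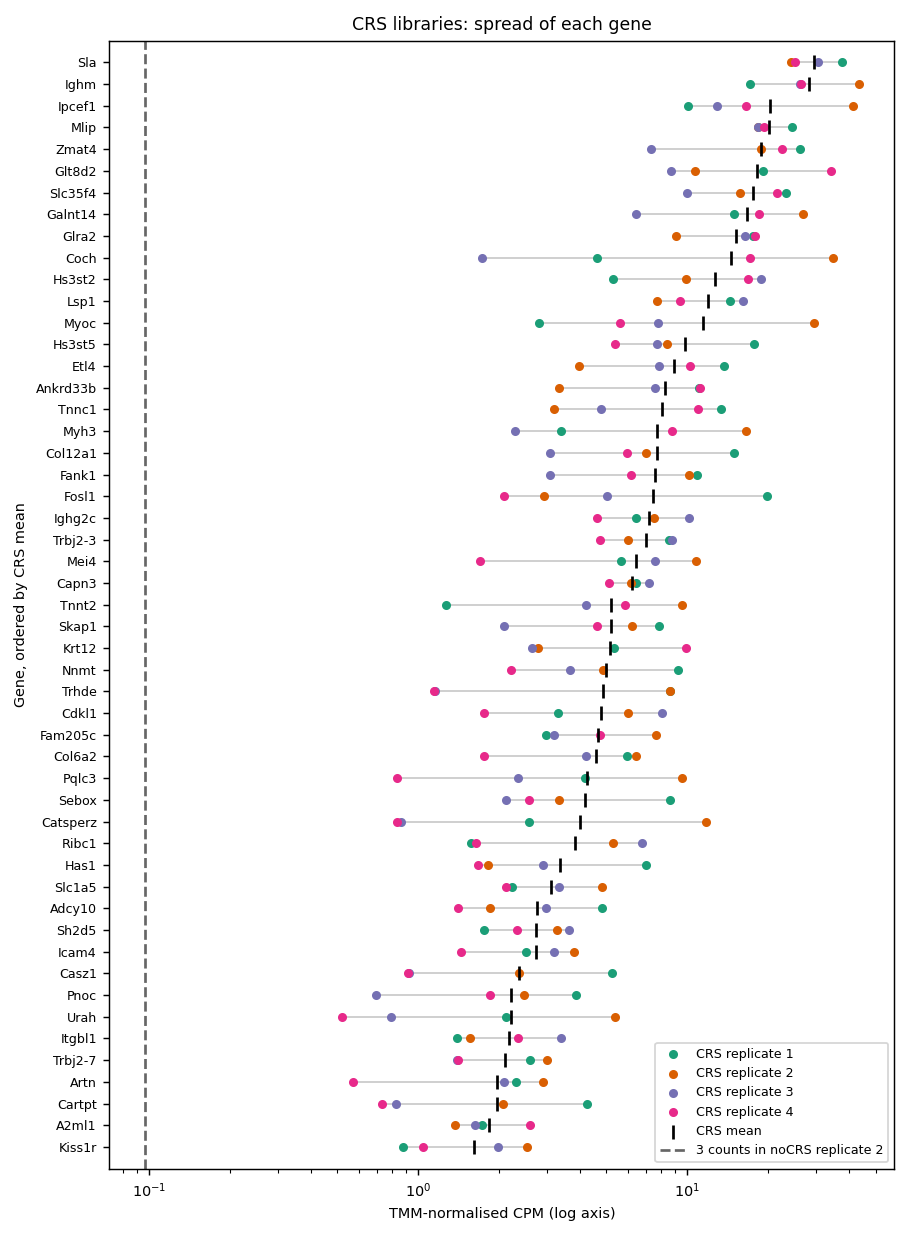
CPM on a log axis of each of the 51 genes (rows, ordered by CRS mean) in the 4 CRS libraries (dots), with the mean (bar) and a dashed line at the level of 3 counts in noCRS replicate 2 (0.0963 CPM). Every dot lies right of that line, and the dots of Coch are the farthest apart, by 20.2 times.

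Size and base composition were set beside those of the 10417 genes with at least 20 counts in every CRS library and a name the rule keeps. The median exon length of the 51 was 4121 bases beside 4517 bases, and their median GC content was 50.8% beside 49.2%. Of the 51, 92.2% were protein coding, beside 97.3%. They lay on 16 chromosomes, with at most 6 on a chromosome. Of the 51, 18 share some exon sequence with another gene of the table and 7 share over 10% of their length. The 7 are Icam4, Fosl1, Krt12, Capn3, Catsperz, Cdkl1 (20.4%, with 4930512B01Rik) and Urah (12.4%, with C330022C24Rik). The authors' settings for reads that fall on more than 1 gene are not given in the labels.

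Complete absence was set against how often genes were at 0 in general. Of the 12318 genes with at least 20 counts in every CRS library, 11711 (95.1%) were detected in all 3 noCRS libraries, 398 (3.23%) were at 0 in 1 of them, 132 (1.07%) in 2 and 77 (0.625%) in all 3. Among the 132 genes at 0 in 2 noCRS libraries, the remaining library held a median of 88 counts, and 77.3% had at least 20 there. So most genes missing from 2 noCRS libraries were well above the floor in the other one.
Single zeros were not limited to noCRS. Of genes with at least 20 counts in the other 6 libraries, the share at 0 was 0.675%, 0.504% and 1.59% in noCRS replicates 1 to 3 and 1.22%, 4.45%, 0.528% and 0.0351% in CRS replicates 1 to 4. CRS replicate 2 thus had the largest share, with 542 of 12169 genes.
Absence from all of noCRS became rarer as the CRS mean rose above 2 CPM. It held for 1.86% of genes with a CRS mean of 0.5 to 2 CPM, 3.17% of genes at 2 to 5 CPM, 1.37% at 5 to 10, 0.693% at 10 to 20, 0.189% at 20 to 50 and 0 of 4240 genes at 50 CPM or more. The share at 0 in at least 1 noCRS library was 16.1% in the lowest range and then fell from 18.0% to 12.9%, 5.91%, 1.89% and 0.212%. Of the 51 genes, 4 lay at 0.5 to 2 CPM, 19 at 2 to 5 CPM, 15 at 5 to 10, 9 at 10 to 20 and 4 (Sla, Ighm, Ipcef1 and Mlip) at 20 to 50.
The reverse pattern, at least 20 counts in every noCRS library and 0 in all 4 CRS libraries, was found in 13 of 13207 genes (0.0984%). Of these 13, 7 have Gm or Rik names, and the others were Des, Angpt4, Hcn3, Mmp23, Wnt5b and Lrrk1, named after their values were seen. The directions are not matched, since the reverse pattern needs a 0 in 4 libraries and the first in 3. A 0 in at least 1 library was more common in the reverse direction, at 9.46% of the 13207 genes against 4.93% of the 12318. How much of the absence is dropout was not tested.

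**Figure D4:**
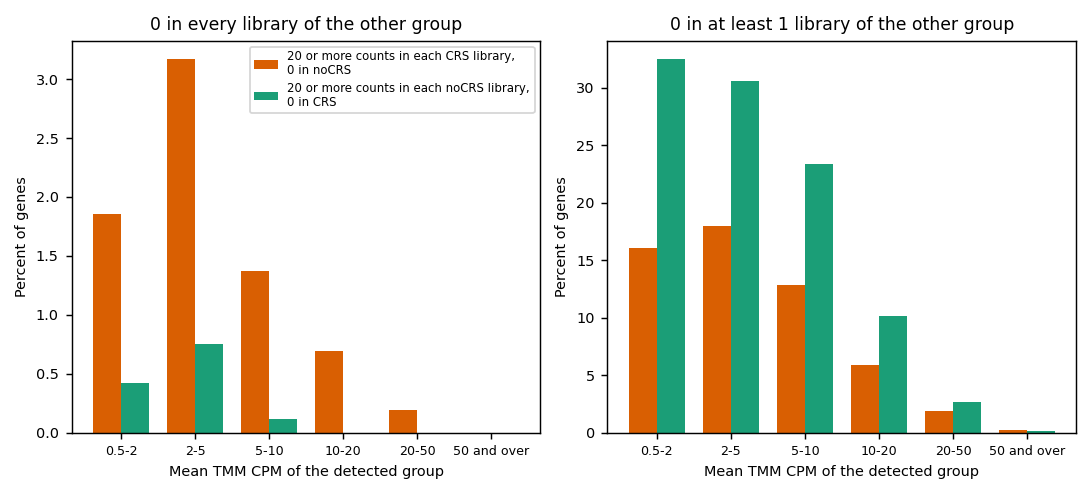
Percent of genes at 0 in every library (left) or in at least 1 library (right) of one group, by mean CPM in the other, for genes with at least 20 counts in each library of that other group. Orange bars are genes present in CRS and green bars genes present in noCRS: at 2 to 5 CPM orange is higher on the left (3.17% against 0.751%) and green on the right (30.6% against 18.0%).

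Just inside the minimum were Urah, Pnoc and Artn, with lowest counts of 20, 21 and 22. Just outside it, with 0 counts in noCRS, were Dpp4, a peptidase gene (19, 220, 81 and 87 counts in CRS), Trbj2-4 and Myocos (17, 189, 40 and 48). Olfml2b (474, 211, 148 and 151) and Slc35f2 (868, 204, 159 and 98) were outside because of 1 count in a noCRS library. The genes on either side of the limits thus had like values.

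For the cell types, 1 of the 51 genes, Hs3st2, was in any of the 19 fixed marker lists, that of excitatory cortical neurons. In that list 7 of 18 tested genes rose, 6 of them not members, and the summed level was 162 to 191 CPM in noCRS and 983 to 1587 CPM in CRS. Its most abundant genes were Mef2c (19.96 ± 2.86 and 205 ± 104 CPM) and Nrgn (13.6 ± 1.36 and 201 ± 38.9 CPM). The pan-neuronal list, led by Snap25 and Gap43, had a summed level of 765 to 867 CPM in noCRS and 4322 to 5867 CPM in CRS. Fewer cells of a type and less RNA per cell cannot be told apart in bulk samples. Several defining markers of cortical glutamatergic neurons, named after their values were seen, were at or near 0 in noCRS. Slc17a7, the vesicular glutamate transporter, had 25, 0 and 0 counts in noCRS and 447, 217, 321 and 360 in CRS. The transcription factor Tbr1 had 16, 0 and 0 and then 816, 160, 269 and 454. Neurod6 had 11, 87 and 1 counts in noCRS and 3881 to 9316 in CRS, and Emx1 had 0 in noCRS and 0, 64, 75 and 70 in CRS. Slc17a7, Tbr1, Neurod6 and Emx1 were thus missing from 1 or more noCRS libraries or scarce there, and their part in the absence of the 51 was not tested. Other markers of cortical layers were present in both groups and not called. Fezf2 was at 17.9 ± 8.06 CPM in noCRS and 26.5 ± 2.31 CPM in CRS (edgeR adjusted p = 0.662). Cux2 was at 20.3 ± 13.8 and 15.4 ± 9.39 CPM (0.894), and Rorb at 47.9 ± 26.9 and 44.9 ± 38.4 CPM (0.979).
Glial markers were abundant in both groups. The oligodendrocyte list summed to 34748 to 40343 CPM in noCRS and 28899 to 56902 CPM in CRS. The astrocyte list, led by Apoe and Aldoc, summed to 12595 to 16643 and 7540 to 14947 CPM, and that of oligodendrocyte precursors, led by Pdgfra and Olig1, to 2906 to 3309 and 1540 to 2020 CPM, with 6 of 12 precursor genes called lower. The inhibitory neuron list summed to 1080 to 1318 and 1065 to 1783 CPM.
Cells that use several of the matrix and muscle genes gave low levels. The list of pericytes, smooth muscle cells and fibroblasts, led by Rgs5 and Acta2, summed to 51.6 to 147 CPM in noCRS and 154 to 476 CPM in CRS. Rgs5 carried the difference, at 6.62 to 65.0 CPM in noCRS and 93.1 to 402 CPM in CRS. Without it the list summed to 45.0 to 82.5 and 55.3 to 121 CPM and the groups overlapped. edgeR called 0 of its 11 tested genes (1 at an unadjusted p under 0.05, 1 by DESeq2 and 0 by limma-voom). The blood cell list, led by the haemoglobin genes Hba-a1 and Hba-a2, was at 0 in all noCRS libraries and at 0.03, 1.65, 0.63 and 16.2 CPM in CRS. The part of these cells in the members' values was not tested.

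**Figure D5:**
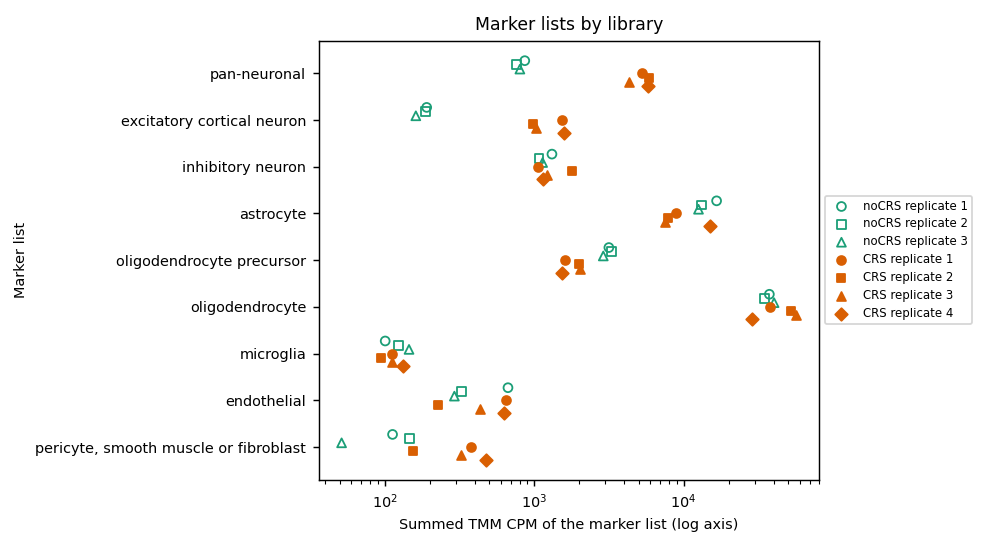
Summed CPM of cell type marker lists in each library on a log axis, noCRS and CRS side by side. Excitatory neuron markers run from 162 to 191 CPM in noCRS and from 983 to 1587 CPM in CRS, while oligodendrocyte markers run from 34748 to 40343 CPM in noCRS and from 28899 to 56902 CPM in CRS.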

How the data were processed

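Per the labels' protocols, a column kit for small samples gave the total RNA, and a TruePrep transposase kit, which does not mark strand, gave the libraries. The values deposited by the authors are raw whole-number counts of reads over exons of each gene in 7 libraries. Per the submitters' processing notes the tools were FastQC, HISAT, HISAT2, featureCounts and DESeq2 on GRCm38, without versions, and the column names end as default STAR output does, so the aligner was not settled. Every column was mapped to a sample by its name (columns of no mapped sample: 0).

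The groups were compared with edgeR 4.0.16 under R 4.3.3 (TMM scaling, default expression filter, quasi-likelihood test, no covariate, Benjamini-Hochberg adjustment over 17833 genes, threshold 0.05). Tables were made with Python 3.11.15 and pandas 2.3.3, and the test script was tested on simulated data. Library totals were 28677703 to 39965667 counts, which puts a floor of 3 counts near 0.0724 to 0.0990 CPM. Alternatives were other limits in the rule, thinning to the smallest total, other scalings and filters, DESeq2 1.42.0, limma-voom (limma 3.58.1), each library left out and the replicate number as a block. Exon overlaps used the coordinates of the deposited table. GENCODE M21 matched 53221 genes by name, 99.3% of them with the same start and end, and all 51 chosen genes.

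The genes, the 19 cell type and 16 function lists, the rules and the alternatives were chosen with earlier results of these data known. Roles and 10 further lists were assigned after the values were seen. Every gene is named with its role. Counts per library are given for the 24 genes with the highest lowest CRS library in CPM and for the 3 just inside the minimum. For fixed lists with at least 2 members, up to 4 other called genes of smallest p are named, and for cell type lists whose level is given, the 2 most abundant, a few of which are not reported here. Other genes were named, and other counts per library given, after the values were seen.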

Additional observations from a re-analysis of the deposited data

Results flagged for a closer look

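In each of the 51 genes the highest and the lowest of the 4 CRS libraries were compared with the rest by Dixon's ratio, the gap to the nearest library over the whole range. Chance passes its 95% critical value in about 1 in 20 groups, and a single high library passed it in 3 of the 51 genes. Catsperz stood at 11.7 CPM in CRS replicate 2 (ratio 0.841), while its other CRS libraries were at 0.834 to 2.57 CPM. Fosl1 stood at 19.8 CPM in CRS replicate 1 (0.834), with the others at 2.08 to 5.02 CPM. Mlip stood at 24.5 CPM in CRS replicate 1 (0.832), with the others at 18.2 to 19.3 CPM.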

How the results depend on the processing

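Under other limits the rule took 59 genes (minimum 10), 38 (minimum 50), 54 (minimum of 0.5 CPM), 53 (up to 1 count in each noCRS library), 59 (up to 3 counts over noCRS) and 47 (all libraries thinned to the smallest total). It took 77 with no names left out and 58 to 94 without a single library (94 without CRS replicate 2, 92 without noCRS replicate 2 and 88 without noCRS replicate 1), where fewer libraries enter the rule. edgeR called 410 genes (369 higher, 41 lower), 377 with DESeq2 size factors (331 and 46), 312 with total counts (248 and 64), 350 with no filter and 408 with at least 10 counts in 3 libraries. DESeq2 called 1631 (1221 and 410) and limma-voom 639 (522 and 117). Without a single library the total was 142 to 352 (138 to 313 higher, 4 to 39 lower).

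With the replicate block edgeR called 12 genes (12 higher, 0 lower, with 673 lower at an unadjusted p under 0.05). The numbers do not pair the samples by label, and same-numbered libraries deviated together by correlations of 0.0153, -0.00319 and 0.0228, although all 3 noCRS libraries correlated best with their own number. Depth allows up to 3 counts behind each 0. With 3 noCRS libraries, absence below that floor was not detectable. The cause of the changes under other tools and scalings was not tested.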
